A study of Mus musculus with 24 samples.

Results

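Cells carrying the second hairpin against Cdk8, called shCdk8-2, were compared with cells carrying a non-targeting control hairpin, shNTC, both at 13 days after infection. The members are the 3 arrays labelled shCdk8-2 and the 3 labelled shNTC at that time, 6 of the 24 arrays of the series. All cells were R1, a mouse embryonic stem (ES) cell line, and every culture, controls included, had been infected with a lentivirus that expresses a short hairpin RNA. The other groups were shCdk8-1, shMed12-1 and shMed12-2 cells at 13 days, and shCdk8-2, shCdk8-1 and shNTC cells at 8 days, again with 3 arrays each. The sources used here do not give the hairpin sequences, or say whether infected cells were selected. Replicates carry a biological label, yet it is not stated if each came from its own infection. The p-values rest on the spread within groups, pooled over all 24 arrays in 8 groups. That spread may leave out variation between infections.

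CDK8 is the kinase of the kinase module of Mediator, the large complex that passes signals from DNA-bound transcription factors to RNA polymerase II. With cyclin C, MED12 and MED13 it docks on core Mediator and phosphorylates transcription factors and parts of the transcription machinery. Depending on the gene, the module holds transcription back or promotes it, and in ES cells it is found at active genes and enhancers.

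Each array set cell RNA in Cy5 against a universal mouse reference RNA, a mixture of cell lines, in Cy3. A level below is therefore a log2 ratio of cells to reference, positive where the cells hold more, and it cannot be compared between genes. A fold change is the log2 difference, shCdk8-2 minus shNTC at 13 days unless another pair is named, and a gene was called when its limma p-value, adjusted by the Benjamini-Hochberg method over 22387 genes, was under 0.05. A called gene is said to have risen or fallen. Single values are given in the order of replicates 1, 2 and 3.

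The 24 arrays had 48.9% to 76.1% of their spots well above background in Cy5. The lowest share was that of shCdk8-2 replicate 3, against 64.2% and 69.6% on the other shCdk8-2 arrays and 62.9% to 67.2% on the shNTC arrays. Among the genes named below, 16 lost their call without it: Ly6g6e, Pramel37, Etv4, Med28 (adjusted p = 0.096), Tcl1 (0.053), Jam2 (0.080), Klf4 (0.099), Hey1 (0.096), Hoxc9 (0.11), Hoxb2 (0.080), Ankrd37 (0.052), Nop2 (0.077), Tyms (0.17), Mcm3 (0.13), Pramel39 (0.097) and Qprt (0.14). The 24 arrays lay on 8 slides. A single slide held both groups, with shCdk8-2 replicate 3 and shNTC replicate 1, and its difference is called the within-slide value. Of 9 ES cell markers, none was called, and their mean level was 5.63 to 5.79 on the shCdk8-2 arrays, against 5.82 to 5.92 on the shNTC arrays. The labelled cell type thus showed its markers in both groups.

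The targeted transcript was lower with its hairpin. Cdk8 had log2 ratios of -1.28, -1.16 and -1.07 in shCdk8-2 cells, against -0.57, -0.57 and -0.46 in shNTC cells. The groups did not overlap. The fold change was -0.64 (SE 0.07, adjusted p = 1.1e-05, limma), and it was -0.54 with slide as a block in the fit (the slide block below) and -0.50 within the slide. A second Cdk8 probe gave -0.34. No other measured subunit of the kinase module was called: Cdk19, the paralog of Cdk8, differed by -0.18, cyclin C (Ccnc) by 0.03, Med12 by 0.12 and Med13l by 0.00. Of 23 core Mediator genes, Med28 and Med7 rose by 0.18 and 0.17, neither of them called under the slide block, and none fell. The share called was 8.7%, against 11.6% of all genes tested.

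Across the transcriptome, 2587 of 22387 genes were called (11.6%), 1312 of them higher (5.86%) and 1275 lower (5.7%). Of the 22387, 13724 have a symbol and the rest are unnamed, and 1891 of the called genes have a symbol. Members of the lists below all have a symbol, whereas the shares over all genes set beside them include the unnamed ones. Most changes were small: the median size of a called fold change was 0.30, and 32 called genes changed at least 2-fold, 9 higher and 23 lower. In 2568 of the 2587 called genes the 3 shCdk8-2 arrays all lay beyond the 3 shNTC arrays. The 15 highest and 15 lowest genes below were taken from these. That their groups do not overlap was thus a condition of choice. The number of called genes depended on the processing. Median centring of the arrays in place of loess called 201 genes, 34.8% of them higher against 50.7% with loess, while the scanner's own log ratios called 4405. With slide as a fixed block 1247 were called, and without shNTC replicate 1 there were 1610. Leaving out 2 arrays of other groups whose ratios were pulled toward 0 gave 3851. Of the 131 other called genes that the rule for named genes takes, 43 lost their call under the slide block and 85 were not called with median centring, and none changed direction in any of the settings tried. With median centring the 15 lowest genes kept their call, as did the 15 highest other than Mt2 and Fstl1, and so did Jam2, Lef1, Sox17, Foxa2, Tagln, Acta1, Anxa1, Gbp2, Sp8, Khdc3, Ldhc, Nupr1, Hkdc1, Abcg1, Pramel39, Aire and Qprt, whose values follow.

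The highest genes encoded secreted and membrane proteins, metal-handling proteins and an interferon-induced GTPase. Pmp22, a membrane protein best known from peripheral myelin, was at -1.46, -1.43 and -1.61 in shCdk8-2 cells, against -2.79, -2.80 and -2.84 in shNTC cells. Its fold change of 1.31 (SE 0.09, adjusted p = 3.2e-08) was far larger than the spread within either group. Thbs1, the matrix glycoprotein thrombospondin 1, was at -0.30, -0.21 and -0.44 in shCdk8-2 cells, against -1.64, -1.59 and -1.55 in shNTC cells. It rose by 1.28 (SE 0.14, adjusted p = 5.9e-06), and its other probes gave 0.74 and 0.51. Slc39a8, an importer of zinc and other divalent metals, rose by 1.13 (SE 0.13, adjusted p = 8.7e-06). Slc40a1, the iron exporter ferroportin, rose by 0.91 (SE 0.09, adjusted p = 1.9e-06).

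The metallothioneins, small cysteine-rich proteins that bind zinc and copper, rose too. Mt1 was at -2.19, -2.10 and -2.0 in shCdk8-2 cells, against -3.07, -3.05 and -3.00 in shNTC cells. Mt2 was at 0.03, -0.01 and -0.09, against -0.96, -0.98 and -0.91 in shNTC cells. The fold changes were 0.94 (SE 0.08, adjusted p = 2.3e-07) and 0.93 (SE 0.08, adjusted p = 3.6e-07). The 2 genes are close in sequence, so their probes may share signal.

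Secreted regulators among the highest genes were Fgfbp1, a carrier of fibroblast growth factors (1.07), Edn1, the precursor of endothelin 1 (1.03), and Fstl1, a follistatin-like glycoprotein (0.90), with adjusted p from 1.6e-05 to 0.00045. Edn1 was at 0.95, 1.09 and 0.88 in shCdk8-2 cells, against 0.02, -0.09 and -0.10 in shNTC cells. Rnf128, an E3 ubiquitin ligase of the endosomal membrane, rose by 0.92 (SE 0.09, adjusted p = 2.6e-06). Skor1, a corepressor of the SKI family, rose by 1.08, and 3830417A13Rik by 0.97, with 0.45 from a second probe. Neither kept its call under the slide block, with an adjusted p of 0.096 and 0.058. Ahnak, a giant scaffold protein under the plasma membrane, was at -2.90, -3.08 and -3.56 in shCdk8-2 cells, against -4.49, -4.11 and -4.24 in shNTC cells. Replicate 3 was the lowest of its group. Its fold change was 1.10 (SE 0.15, adjusted p = 7.6e-05), and its 4 other probes gave 0.04 to 0.87.

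**Figure D1:**
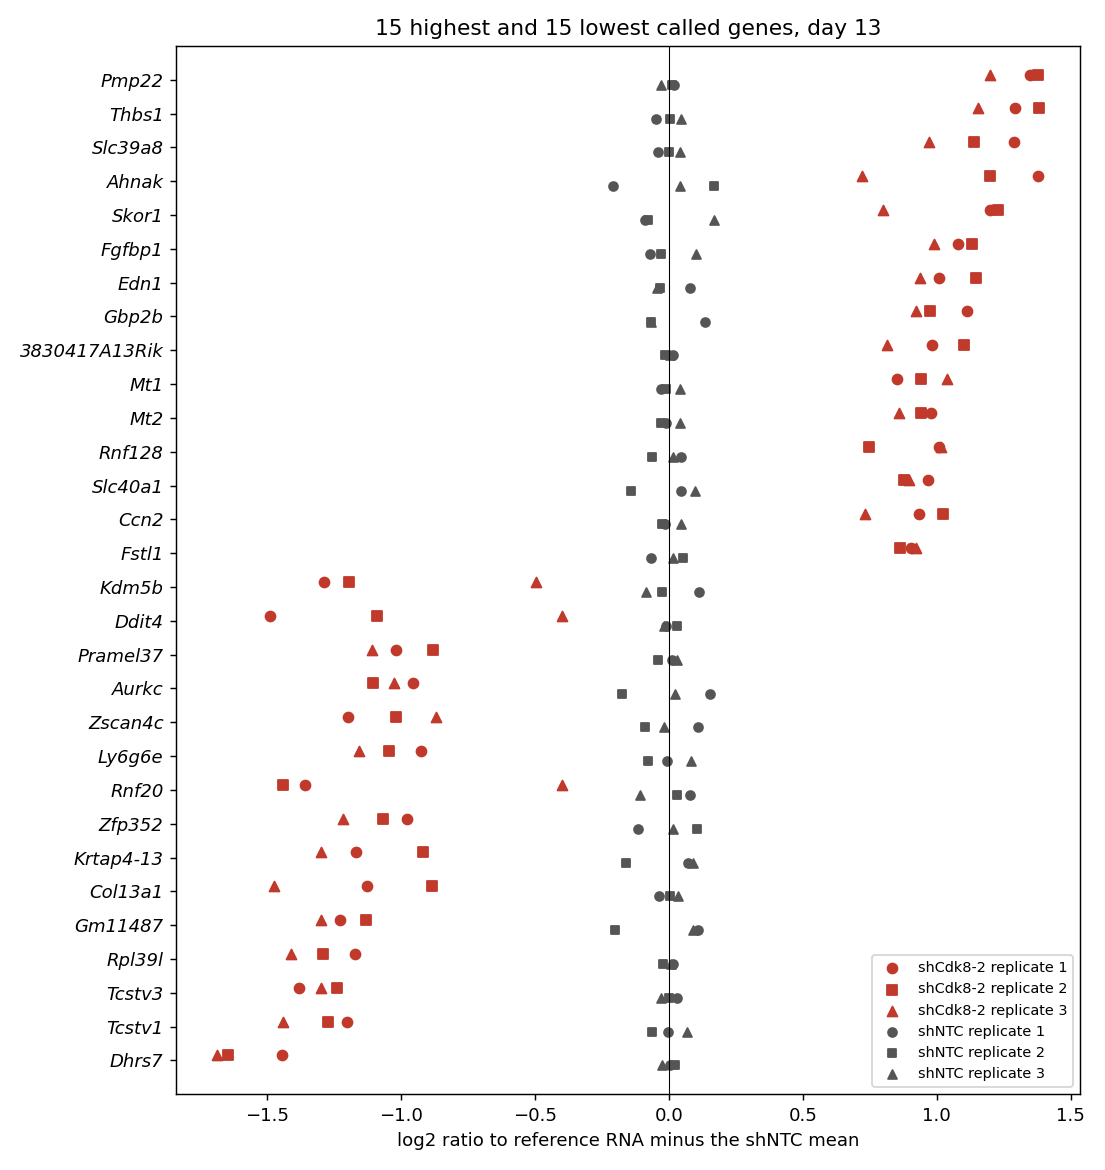
Levels on single arrays of the 15 highest and the 15 lowest called genes with a symbol whose groups do not overlap, at 13 days. The x axis is the log2 ratio to the reference RNA minus the shNTC mean of the gene, red points are shCdk8-2 arrays and grey points shNTC arrays. The shCdk8-2 points of Rnf20, Kdm5b and Ddit4 spread widely because replicate 3 lies nearer to the controls.

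The largest fall was that of Dhrs7, a short-chain dehydrogenase of the endoplasmic reticulum. It was at -3.65, -3.85 and -3.89 in shCdk8-2 cells, against -2.20, -2.18 and -2.23 in shNTC cells, and the fold change was -1.59 (SE 0.07, adjusted p = 1.1e-11). Rpl39l, a paralog of the ribosomal protein gene Rpl39 known from testis, was at 0.06, -0.06 and -0.18 in shCdk8-2 cells, against 1.25, 1.21 and 1.24 in shNTC cells. It fell by 1.29 on the log2 scale (SE 0.06, adjusted p = 3.0e-11), and a second probe gave -1.18. In both genes the gap between the groups was many times the spread within them. Col13a1, a collagen that spans the cell membrane, fell by 1.16 (SE 0.22, adjusted p = 0.0014).

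In 3 of the 15 lowest genes the shCdk8-2 arrays themselves disagreed in size. Rnf20, the E3 ligase that ubiquitylates histone H2B, was at -1.77, -1.85 and -0.81 in shCdk8-2 cells, against -0.33, -0.38 and -0.52 in shNTC cells, and its other probe gave -0.08. Kdm5b, a demethylase of histone H3 lysine 4, was at 1.09, 1.18 and 1.88 in shCdk8-2 cells, against 2.49, 2.35 and 2.29 in shNTC cells, and its other probe gave -0.16. Ddit4, a stress-induced inhibitor of mTORC1, was at -2.16, -1.76 and -1.07 in shCdk8-2 cells, against -0.68, -0.64 and -0.69 in shNTC cells. Replicate 3, the dim array, was nearest to the controls each time. It could not reach them, because the 15 lowest genes were chosen without overlap between the groups. The fold changes were -1.07, -0.99 and -0.99 with all arrays. Without replicate 3, the array nearest to the controls, they were -1.4, -1.24 and -1.29, and all 3 genes were called. The within-slide values, which use replicate 3, were -0.48, -0.61 and -0.39. Gm11487, the keratin-associated protein gene Krtap4-13 and the LY6 family gene Ly6g6e also lay among the 15 lowest, at -1.22, -1.13 and -1.04. The slide block ended all 3 calls, at an adjusted p of 0.15, 0.12 and 0.24, and Ly6g6e was not called without replicate 3 either (adjusted p = 0.076).

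Genes of the 2-cell-like state, a rare condition of ES cells that resembles the embryo after its first division, were lower. Of 9 measured, 6 fell and none rose (66.7% called, against 11.6% of all genes). The list median was -0.91 against 0.00 over all genes. Tcstv1 was at 3.89, 3.82 and 3.65 in shCdk8-2 cells, against 5.09, 5.03 and 5.16 in shNTC cells, a fold change of -1.31 (SE 0.16, adjusted p = 1.8e-05). Tcstv3 was at 2.08, 2.22 and 2.16 in shCdk8-2 cells, against 3.49, 3.46 and 3.43 in shNTC cells, and fell by 1.31 as well. Zscan4c, a zinc finger gene linked to telomere maintenance, was at 5.72, 5.90 and 6.05 in shCdk8-2 cells, against 7.03, 6.83 and 6.90 in shNTC cells, and fell by 1.03 (SE 0.28, adjusted p = 0.018). That these groups did not overlap was a condition of choice. Zfp352, a zinc finger gene of the early embryo, fell by 1.09, but 1 of 3 shCdk8-2 arrays was not well above background and a second probe gave -0.18. The 2-cell genes belong to families of near-identical copies, so a probe may read several of them. Under the slide block the list median was -0.93 with 3 called, and Tcstv3 (adjusted p = 0.091), Zscan4c (0.15) and Zfp352 (0.18) were not among them. Within the slide the median was -0.98. In cells studied in bulk, fewer cells in that state and less RNA per cell cannot be told apart.

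Genes known from oocytes, testis and meiosis included 5 that fell among 31 measured and none that rose, with a median of -0.14. The share called was 16.1%, not far from the 11.6% over all genes. Under the slide block 3 fell and the median was -0.08, and within the slide it was -0.21. Aurkc, the aurora kinase of meiosis, was at 2.23, 2.08 and 2.16 in shCdk8-2 cells, against 3.34, 3.01 and 3.21 in shNTC cells, and fell by 1.03 (SE 0.13, adjusted p = 2.1e-05). Its second probe gave -1.05. Khdc3, a subcortical maternal complex protein, fell by 0.97 and Ldhc, the lactate dehydrogenase of testis, by 0.85. Both lost their call under the slide block (adjusted p = 0.12 for each), and Ldhc was well above background on 2 of 3 shCdk8-2 arrays. Pramel37, a PRAME family gene, fell by 1.01, with an adjusted p of 0.17 under the slide block and 0.053 without replicate 3.

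The contractile and actin-binding genes of smooth muscle and heart rose as a group. Of 25 measured, 15 rose and 2 fell (68.0% called, against 11.6% of all genes), with a median fold change of 0.29. Tagln, the actin-bundling protein transgelin, was at 0.83, 0.77 and 0.81 in shCdk8-2 cells, against -0.03, 0.02 and -0.03 in shNTC cells. Its fold change was 0.82 (SE 0.06, adjusted p = 3.5e-08), and a second probe gave 0.67. Acta1, skeletal muscle actin, was at 1.14, 1.05 and 1.11 in shCdk8-2 cells, against 0.38, 0.35 and 0.37 in shNTC cells, and rose by 0.73 (SE 0.08, adjusted p = 5.9e-06). Acta2, smooth muscle actin, rose by 0.58 (SE 0.06, adjusted p = 4.9e-06) and Actc1, cardiac actin, by 0.52 (SE 0.10, adjusted p = 0.0014). Other Acta2 probes gave 0.22 and 0.44. Actins are close in sequence, and their probes may share signal. The list median on single arrays was 0.26, 0.32 and 0.34 above the shNTC mean in shCdk8-2 cells, against -0.02, 0.01 and 0.00 in shNTC cells.

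The following members were chosen after their values were seen. The rises took in calponins (Cnn1 0.34, Cnn2 0.51, Cnn3 0.24), tropomyosins (Tpm1 0.50, Tpm2 0.37, Tpm4 0.29), non-muscle myosin heavy chains (Myh9 0.38, Myh10 0.36) and vinculin (Vcl 0.46), which many cell types use in stress fibres and adhesions. The muscle actins above rose as well, while smooth muscle myosin (Myh11) differed by -0.03 and cardiac troponin T (Tnnt2) by 0.10, neither called, and desmin (Des) fell by 0.39. Of the 5 muscle markers none rose and 1 fell, and 1 was well above background on all shCdk8-2 arrays, against 5 on all shNTC arrays. Myh11, Tnnt2, Myog and Myod1 were so on 2 of 3 shCdk8-2 arrays, a group that includes the dim replicate 3. Their fold changes were -0.03 to 0.10. Blocking on slide left 13 that rose and 1 that fell with a median of 0.35, and within the slide the median was 0.34. Of 12 fibroblast markers 11 were measured and none was called. Their median fold change was 0.23, and all were positive apart from Thy1 (-0.17) and Pdgfrb (-0.12). Their mean level was -4.18 to -3.60 in shCdk8-2 cells, against -4.41 to -3.94 in shNTC cells, and these ranges overlap. Each measured fibroblast marker was well above background on some of the arrays compared. On all shCdk8-2 arrays 8 were so, against 10 on all shNTC arrays. Their part in the result was not tested.

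Serum response factor, a regulator of many actin and contractile genes, binds a 10-base element named the CArG box. The windows of 250 bases before and 50 after the gene start, taken from RefSeq (assembly GRCm38.p6), were searched for it, and the pattern reads the same on both strands. It stood in the windows of 4 of the 14 contractile genes that rose and have a window (Acta1, Actc1, Cnn2 and Vcl), against 1.63% of 32851 windows. The 3 with the largest fold changes are printed in their own orientation with the element in capitals, 73, 47 and 56 bases before the start. They lie at chr8:123894726-123895025 on the minus strand, chr2:114052826-114053125 on the minus strand and chr10:79988350-79988649 on the plus strand. A match is a run of letters, not a measured binding site. In this and the later searches a gene counts when any of its windows matches, while the share over all windows counts single windows. The 14 contractile genes have 15 windows, and the 32851 windows do not cover every chromosome. List members not called in the stated direction were not counted, so the searches do not compare them with those that were.
Acta1: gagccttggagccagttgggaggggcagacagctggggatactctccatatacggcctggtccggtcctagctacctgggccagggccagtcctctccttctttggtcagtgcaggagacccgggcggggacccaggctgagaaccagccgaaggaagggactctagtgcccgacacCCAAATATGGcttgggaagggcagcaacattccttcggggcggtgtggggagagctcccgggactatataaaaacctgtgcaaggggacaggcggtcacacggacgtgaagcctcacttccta
Actc1: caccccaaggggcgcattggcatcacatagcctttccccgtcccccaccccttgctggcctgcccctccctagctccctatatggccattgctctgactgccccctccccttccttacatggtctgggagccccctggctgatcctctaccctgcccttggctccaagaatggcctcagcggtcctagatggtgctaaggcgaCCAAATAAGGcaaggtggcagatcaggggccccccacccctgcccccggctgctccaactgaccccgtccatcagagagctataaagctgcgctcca
Cnn2: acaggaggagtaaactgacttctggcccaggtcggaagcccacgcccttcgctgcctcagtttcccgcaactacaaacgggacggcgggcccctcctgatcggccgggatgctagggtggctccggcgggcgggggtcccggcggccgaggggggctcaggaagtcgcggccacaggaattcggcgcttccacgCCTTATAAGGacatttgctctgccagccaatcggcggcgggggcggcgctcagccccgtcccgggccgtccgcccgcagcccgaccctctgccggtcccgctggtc

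Targets of YAP and TEAD, a coactivator and transcription factors that respond to cell shape and tension, rose alongside. Of 10 measured, 7 rose and none fell (70.0% called, against 11.6% of all genes), with a median of 0.41. Ccn2, a matricellular growth factor, was at 0.55, 0.64 and 0.35 in shCdk8-2 cells, against -0.40, -0.41 and -0.34 in shNTC cells, and rose by 0.90 (SE 0.09, adjusted p = 1.0e-06). Its relative Ccn1 was at -3.06, -2.84 and -3.04 in shCdk8-2 cells, against -3.71, -3.73 and -3.82 in shNTC cells, and rose by 0.77 (SE 0.08, adjusted p = 2.6e-06). Neither gene had overlapping groups, which for Ccn2 was a condition of choice. Nt5e, an ectonucleotidase, rose by 0.55 and Amotl2, an angiomotin, by 0.43. The slide block gave a median of 0.52 with 4 called, Nt5e no longer among them (adjusted p = 0.058), and the within-slide median was 0.42. Without replicate 3 also 4 were called. The letters GGAATG or their reverse complement, the TEAD motif, stood in the windows of 4 of the 6 YAP and TEAD genes that rose and have a window, against 14.7% of all windows.

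Annexins, S100 proteins and caveola proteins, which work at the inner face of the plasma membrane, gave 10 rises and no fall among 18 members. The share called was 55.6%, against 11.6% of all genes, and the median was 0.25. Anxa1, a calcium-dependent phospholipid binder, was at -3.70, -3.72 and -3.81 in shCdk8-2 cells, against -4.65, -4.68 and -4.56 in shNTC cells. It rose by 0.89 (SE 0.06, adjusted p = 1.8e-08). The galactose-binding lectin Lgals3 rose by 0.64 (SE 0.10, adjusted p = 0.00029) and caveolin 1 (Cav1) by 0.57 (SE 0.12, adjusted p = 0.0025), though a second Cav1 probe gave 0.05. Under the slide block 5 were called, at a median of 0.27, and the within-slide median was 0.25.

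Epithelial and trophectoderm genes rose in part. Among 13 trophectoderm genes 4 rose and none fell (30.8% called, against 11.6% of all genes), with a median of 0.19. Gata3, a transcription factor of that lineage, was at -2.07, -2.10 and -2.16 in shCdk8-2 cells, against -2.90, -2.93 and -2.87 in shNTC cells, and rose by 0.79 (SE 0.12, adjusted p = 0.00022). Id2, an inhibitor of basic helix-loop-helix factors, rose by 0.70 (SE 0.07, adjusted p = 1.0e-06). The partner keratins Krt8 and Krt18 rose by 0.40 and 0.36. Of 20 cadherin and epithelial transition genes, 4 rose and none fell (20.0% called), median 0.16. These were the keratins, N-cadherin (Cdh2, 0.47) and the tight junction protein Cldn7 (0.41). Cdh2 was not called under the slide block (adjusted p = 0.17). The intermediate filament vimentin (Vim) rose by 0.75 (SE 0.08, adjusted p = 2.6e-06), and with Thbs1 it was the called pair among 27 fibroblast and feeder genes, whose median was 0.20 (7.4% called).

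**Figure D2:**
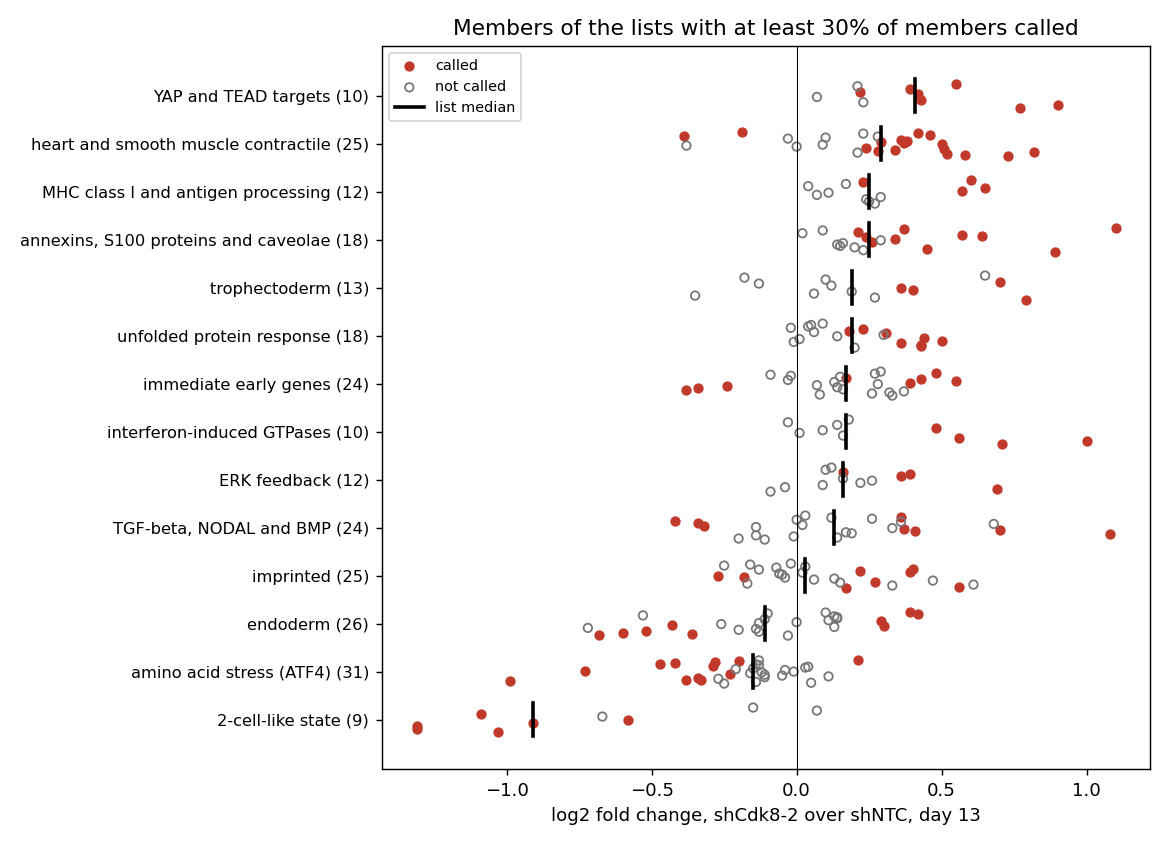
Fold changes of the members of the 14 lists in which at least 30% of members were called at 13 days. The x axis is the log2 fold change, shCdk8-2 over shNTC, each point is a gene, filled red where called and open where not, bars are list medians, and the number of members measured follows the name. Contractile genes, YAP and TEAD targets, annexins and the antigen processing genes lie mostly right of 0, and 2-cell-like and ATF4 genes mostly left.

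Interferon-induced GTPases, which attack vacuoles of intracellular pathogens, gave 4 rises and no fall among 10 members. The share called was 40.0%, against 11.6% of all genes, and the median was 0.17. Gbp2b was at 2.56, 2.42 and 2.37 in shCdk8-2 cells, against 1.58, 1.38 and 1.38 in shNTC cells, and rose by 1.00 (SE 0.13, adjusted p = 2.7e-05). Gbp2 was at 1.53, 1.34 and 1.37 in shCdk8-2 cells, against 0.73, 0.66 and 0.72 in shNTC cells, and rose by 0.71 (SE 0.08, adjusted p = 9.9e-06). Their groups did not overlap, which for Gbp2b was a condition of choice. Gbp3 rose by 0.56 and Irgm1 by 0.48, and Gbp3 lost its call under the slide block (adjusted p = 0.080). Probes of this family may also share signal. The median under that block was 0.12 with 3 called, and the within-slide median 0.28.

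Interferon-regulated promoters often carry elements made of 2 copies of TTTC with any 2 bases between them. Such a repeat, on either strand, stood in the windows of all 4 GTPase genes that rose, against 3.44% of all windows. The Gbp windows are printed with the repeat in capitals, which begins 137 bases before the start in Gbp2b and 59 before it in Gbp2. Gbp3 has 2 overlapping copies, at 45 and 39 bases before the start. The windows lie on the plus strand at chr3:142594597-142594896, chr3:142620413-142620712 and chr3:142559794-142560093.
Gbp2b: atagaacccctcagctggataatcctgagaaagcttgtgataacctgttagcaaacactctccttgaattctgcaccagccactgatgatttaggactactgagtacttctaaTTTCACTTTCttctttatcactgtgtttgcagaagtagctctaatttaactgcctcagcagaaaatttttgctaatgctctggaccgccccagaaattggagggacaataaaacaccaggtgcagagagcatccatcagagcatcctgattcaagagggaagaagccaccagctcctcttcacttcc
Gbp2: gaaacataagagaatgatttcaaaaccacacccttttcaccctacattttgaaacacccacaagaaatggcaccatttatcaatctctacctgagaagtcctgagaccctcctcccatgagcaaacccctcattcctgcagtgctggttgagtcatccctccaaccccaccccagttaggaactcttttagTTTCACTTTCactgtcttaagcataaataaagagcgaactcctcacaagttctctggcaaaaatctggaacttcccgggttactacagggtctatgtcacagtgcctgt
Gbp3: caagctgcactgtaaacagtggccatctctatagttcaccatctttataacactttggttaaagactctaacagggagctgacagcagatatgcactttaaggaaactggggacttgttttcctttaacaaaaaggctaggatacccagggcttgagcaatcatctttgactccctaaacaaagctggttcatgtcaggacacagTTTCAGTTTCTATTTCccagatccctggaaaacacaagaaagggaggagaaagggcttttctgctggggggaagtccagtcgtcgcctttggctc

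Genes of MHC class I antigen processing gave 4 rises and no fall among 12 (33.3% called), median 0.25. The immunoproteasome subunit Psmb8 rose by 0.65, the trimming peptidase Erap1 by 0.60, tapasin (Tapbp) by 0.57 and the proteasome activator Psme1 by 0.23, with adjusted p from 3.5e-05 to 0.013. A second Tapbp probe gave 0.17. Under the slide block only Tapbp of the 12 was called, and the median was 0.15, within the slide 0.20. In the wider interferon response 3 of 25 genes rose and none fell, close to the 11.6% called over all genes: the chemokine Cxcl10 by 0.85, Ifitm3, a restriction factor for virus entry, by 0.48, and tetherin (Bst2) by 0.32. Cxcl10 and Bst2 lost their call there (adjusted p = 0.082 and 0.11).

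Stress programmes moved in opposite directions. Of 31 genes of the amino acid response driven by ATF4, 11 fell and 1 rose (38.7% called, against 11.6% of all genes). The median was -0.15. Nupr1, a small chromatin-associated stress protein, was at -3.05, -3.06 and -3.07 in shCdk8-2 cells, against -2.35, -2.19 and -2.44 in shNTC cells. It fell by 0.73 (SE 0.07, adjusted p = 1.6e-06). The serine synthesis enzymes Psat1 and Psph fell by 0.47 and 0.42, and Ddit4, described above, by 0.99. Blocking on slide left 6 that fell, with a median of -0.16, Psph not among them (adjusted p = 0.17), and within the slide the median was -0.12. The letters TGATGCAA or their reverse complement, an ATF4 element, stood in windows of 2 of the 10 genes that fell and have a window (Chac1 and Nupr1), against 0.895% of all windows.

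In the unfolded protein response of the endoplasmic reticulum, 8 of 18 genes rose and none fell (44.4% called, against 11.6% of all genes). The median was 0.19. The chaperone BiP (Hspa5) was at -1.42, -1.36 and -1.24 in shCdk8-2 cells, against -1.8, -1.77 and -1.73 in shNTC cells. It rose by 0.43 (SE 0.05, adjusted p = 2.1e-05). Its co-chaperone Dnajc3 rose by 0.50, while other Dnajc3 probes gave 0.28, 0.13 and 0.30. The disulfide isomerase Pdia4 rose by 0.44 and the chaperone Hsp90b1 by 0.43, whose second probe gave 0.04. The slide block left 5 that rose, median 0.21, and within the slide the median was 0.24.

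Metabolic and growth lists were mixed. Of 34 cholesterol and fatty acid genes 4 rose and 4 fell (23.5% called, against 11.6% of all genes), median -0.03. Abcg1, a cholesterol exporter, was at -1.34, -1.49 and -1.38 in shCdk8-2 cells, against -0.47, -0.48 and -0.55 in shNTC cells, and fell by 0.90 (SE 0.09, adjusted p = 2.5e-06). Abca1, another cholesterol exporter, rose by 0.52 and squalene epoxidase (Sqle) by 0.44. Of 26 glycolysis and hypoxia genes 5 fell and 2 rose (26.9% called), median 0.04. Hkdc1, a hexokinase-like enzyme, fell by 0.86, the glycolytic enzymes Aldoc and Pfkp by 0.35 and 0.31, and Ankrd37, a hypoxia target, by 0.27. A second Pfkp probe gave -0.02. These genes had the largest changes among the called members, while 16 of the 26 members had a positive fold change. Of 24 p53 targets 3 rose and 3 fell, median -0.03: Pmaip1, which promotes apoptosis, rose by 0.41, while Gdf15, a stress cytokine, and cyclin G2 (Ccng2) fell by 0.45 each and Sesn2 by 0.34. Among 32 cell cycle genes 4 fell and none rose (12.5% called), median -0.06, close to the background. E2f1 fell by 0.31, thymidylate synthase (Tyms) by 0.23, cyclin B2 (Ccnb2) by 0.20 and the replicative helicase subunit Mcm3 by 0.17. In the MYC and ribosome biogenesis list 1 of 29 rose and 2 fell (10.3%), median -0.06. Myc itself was at -0.84, -0.78 and -0.70 in shCdk8-2 cells, against -1.31, -1.25 and -1.21 in shNTC cells, a rise of 0.48 (SE 0.07, adjusted p = 0.00011), while the ribosome assembly factors Wdr12 and Nop2 fell by 0.35 and 0.17. Other Wdr12 probes gave -0.03 and -0.53. Ankrd37, Sesn2, Tyms, Mcm3 and Nop2 were not called under the slide block, with adjusted p from 0.066 to 0.14.

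Of 28 naive and general pluripotency genes 5 fell and 1 rose, 21.4% called against 11.6% of all genes, with a median of -0.12 and -0.08 under the slide block. Pou5f1, which encodes OCT4, was at 6.01, 5.98 and 6.78 in shCdk8-2 cells, against 6.65, 6.46 and 6.66 in shNTC cells. Replicate 3 was the highest of all 6 arrays and the other shCdk8-2 arrays the lowest, and the difference of -0.34 was not called (SE 0.26, adjusted p = 0.48, and 0.18 without replicate 3). Sox2, Zfp42 and Esrrb differed by -0.26, -0.05 and -0.14, none of them called. The naive factors Tbx3 and Klf4 fell by 0.31 and 0.21, the coactivator of AKT Tcl1 by 0.55, the adhesion protein Jam2 by 0.47 and Rif1, a replication timing factor, by 0.40, while osteopontin (Spp1) rose by 0.41. A second Rif1 probe gave 0.18 and a second Jam2 probe -0.29. Under the slide block Tcl1, Jam2, Rif1 and Klf4 were not called (adjusted p from 0.091 to 0.18). In the primed epiblast list 2 of 15 rose and none fell, median 0.13, and the 13.3% called was near the share over all genes. Lef1, a WNT effector, rose by 0.64, and the ETS factor Etv4 by 0.16. Etv4 lost its call under the slide block (adjusted p = 0.18) and without replicate 3 (0.22).

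Of 26 endoderm genes 5 fell and 4 rose (34.6%), with a median of -0.11, -0.02 under the slide block and -0.18 within the slide. Gata6 was at -3.20, -3.29 and -3.10 in shCdk8-2 cells, against -2.43, -2.59 and -2.54 in shNTC cells, and fell by 0.68, although its 2 other probes gave 0.10 and -0.01. Sox17 fell by 0.60 and Foxa2 by 0.52, both transcription factors of that lineage, and the basement membrane collagen Col4a1 by 0.43. These had the largest changes among the called members of the list. The 4 members that rose changed less and are not named. Of 6 primitive endoderm markers 4 fell and none rose, and Afp was not well above background on any array of the groups compared. The mean level of the 6 markers was -1.21 to -1.13 in shCdk8-2 cells, against -0.85 to -0.74 in shNTC cells. Of 17 mesoderm genes Gata2 was the called one (5.9%), with 0.34. Among 19 neural genes nestin (Nes) and the homeobox gene Meis2 rose by 0.64 and 0.46 (10.5% called), median 0.08, while the 4 neural markers fixed for cell types had no call. Of 25 HOX genes 3 rose and none fell, a share near the 11.6% over all genes, median 0.14, with Hoxc9 at 0.55 and Hoxb2 at 0.37. Sox17 (adjusted p = 0.061), Gata2 (0.29), Hoxc9 (0.25) and Hoxb2 (0.19) lost their call under the slide block. The 1 measured blood marker of 3 was not called.

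Of 24 immediate early genes 5 rose and 3 fell, 33.3% called against 11.6% of all genes, median 0.17. Klf6 and Maff, both transcription factors, rose by 0.55 and 0.43 and Ier5 by 0.39. With Myc, given above, these had the largest changes among the called members, and the 3 that fell changed less. Among 12 genes of ERK feedback 4 rose and none fell (33.3%), median 0.16. The phosphatase Dusp6, which inactivates ERK, was at 0.20, 0.34 and 0.17 in shCdk8-2 cells, against -0.50, -0.40 and -0.46 in shNTC cells. It rose by 0.69 (SE 0.06, adjusted p = 6.5e-07), and the ETS factor Etv1 and Phlda1 rose by 0.39 and 0.36. In the TGF-beta, NODAL and BMP list 5 of 24 rose and 3 fell (33.3%), median 0.13. Besides Skor1 and Id2, Id1, a BMP target, rose by 0.41, while the activin subunit Inhbb fell by 0.42, with -0.13 from a second probe. Of 18 WNT targets 4 rose and none fell (22.2% called), median 0.09. Among them were the zinc finger factor Sp8 (0.70) and the ligand Wnt6 (0.57). Of 17 Notch genes 2 fell and none rose (11.8%, the share near that over all genes), median -0.06: the glycosyltransferase Mfng by 0.41 and the target Hey1 by 0.25. Among 25 imprinted genes 6 rose and 2 fell (32.0%), median 0.03. Mest rose by 0.56, the growth factor scavenger Igf2r by 0.40, the tetraspanin Cd81 by 0.39 and the adaptor Grb10 by 0.27. These had the largest changes among the called members, and the 2 that fell changed less. Other Grb10 probes gave 0.19 and 0.07. Of 13 genes of DNA methylation and TET 3 rose and none fell (23.1% called), median 0.11. Dnmt3l, a cofactor of de novo methylation, rose by 0.51, and the stress genes Gadd45a and Gadd45b by 0.43 and 0.41. A second Gadd45b probe gave 0.28. The slide block ended the calls of Hey1, Mest, Igf2r and Grb10, with adjusted p from 0.082 to 0.11.

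The other Cdk8 hairpin, shCdk8-1, was tested at the same 13 days. Set against each other, the hairpins differed in 2615 genes (11.7% of those tested), 1242 higher with shCdk8-2 (5.55%) and 1373 lower (6.13%), a number close to the 2587 that separated shCdk8-2 from shNTC. The count was 1257 under the slide block, 268 with median centring and 3817 without 2 arrays of other groups whose ratios were pulled toward 0. Cdk8 itself was at -1.28, -1.16 and -1.07 with shCdk8-2 and at -1.37, -1.54 and -1.54 with shCdk8-1, a difference of 0.31 (adjusted p = 0.0072) that means a shallower fall with shCdk8-2. The comparisons of the hairpins with shNTC share the 3 shNTC arrays, so their values are given side by side, and shCdk8-1 against shNTC called 2822 genes (12.6%), 1455 higher (6.5%) and 1367 lower (6.11%).

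Dhrs7, the gene that fell most, differed between the hairpins. It was at -3.65, -3.85 and -3.89 with shCdk8-2 and at -2.38, -2.32 and -2.31 with shCdk8-1, against -2.20, -2.18 and -2.23 in shNTC cells. The hairpin difference was -1.46 (adjusted p = 5.4e-11), and the shCdk8-1 fold change of -0.13 was not called. Among 2-cell-like genes Tcstv1 fell by 1.31 with shCdk8-2 and was -0.38, not called, with shCdk8-1, a hairpin difference of -0.93 (adjusted p = 0.00051). Zfp352 had a difference of -1.16 (adjusted p = 0.0076) and Pramel37 of -1.29 (adjusted p = 0.0025). For Zscan4c and Tcstv3 the hairpin difference was not called, at -0.35 and -0.64. Over the list 6 of 9 genes fell with shCdk8-2 and 1 with shCdk8-1.

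The 6 lowest hairpin differences were headed by genes that were higher with shCdk8-1. Acss1, a mitochondrial acetyl-CoA synthetase, was at -1.95, -2.10 and -2.0 with shCdk8-2 and at -0.34, -0.54 and -0.48 with shCdk8-1, against -1.73, -1.69 and -1.76 in shNTC cells. The difference was -1.57 (adjusted p = 9.4e-11). Stac3, a protein of muscle excitation-contraction coupling, differed by -1.47 (adjusted p = 1.5e-08) and Glod5, a glyoxalase domain gene, by -1.38 (adjusted p = 5.1e-09). Both had shCdk8-1 fold changes called higher, of 1.25 and 1.16, while the shCdk8-2 fold changes of -0.22 and -0.22 were not called. Pramel39 differed by -1.31 (adjusted p = 0.0046) and had a fold change of -0.98 with shCdk8-2, called, and of 0.33 with shCdk8-1, not called. The shCdk8-2 call was lost under the slide block (adjusted p = 0.24) and without replicate 3 (0.097).

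At the other end stood genes that rose with shCdk8-2 and fell with shCdk8-1. The integrin subunit Itgb4 was at 1.89, 1.85 and 1.75 with shCdk8-2 and at 0.76, 0.75 and 0.76 with shCdk8-1, against 1.43, 1.38 and 1.38 in shNTC cells. The hairpin difference was 1.07 (adjusted p = 1.0e-09). Tmem59l (1.18), Aire, the thymic autoimmune regulator (1.12), and Dnmt3l (1.06) followed the same pattern, each called in opposite directions with the hairpins. Tmem59l lost its call against shNTC under the slide block (adjusted p = 0.11). Slc40a1 differed by 1.13 (adjusted p = 5.4e-08) and was not called with shCdk8-1. The contractile genes Acta2, Actc1 and Tagln rose with both hairpins, by different amounts. Acta2 and Actc1 rose by 0.58 and 0.52 with shCdk8-2 and by 1.39 and 1.32 with shCdk8-1. Their hairpin differences were -0.82 and -0.80, whereas Tagln (0.82 and 0.59) differed by 0.23, all 3 called. With shCdk8-1 15 of the 25 contractile genes rose and 3 fell, and 3 of the 10 YAP and TEAD targets rose.

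**Figure D3:**
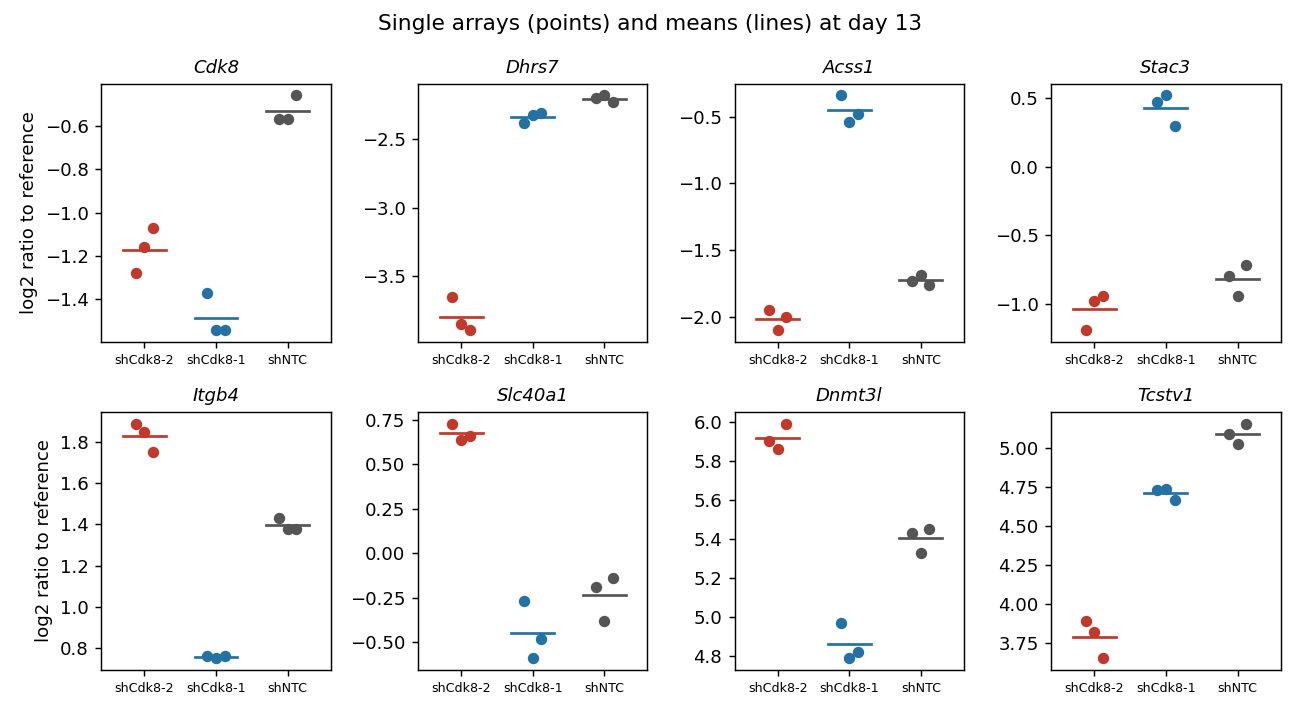
Levels on single arrays at 13 days for Cdk8 and 7 genes named in the text. The y axes are log2 ratios to the reference RNA, with a scale of their own for each gene, points are arrays and lines means, with shCdk8-2 in red, shCdk8-1 in blue and shNTC in grey. Dhrs7 is low with shCdk8-2 alone, Acss1 and Stac3 are high with shCdk8-1 alone, and Itgb4 and Dnmt3l lie on opposite sides of shNTC with the hairpins.

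Whether the shCdk8-2 effect changed with time was tested as the fold change at 13 days minus the fold change at 8 days, each against its own shNTC arrays. This difference was called for 1313 genes (5.87%), 656 higher at 13 days (2.93%) and 657 lower (2.93%). The count was 514 under the slide block, 34 with median centring and 2281 without 2 arrays of other groups whose ratios were pulled toward 0. At 8 days shCdk8-2 called 3136 genes (14.0%), 1654 higher (7.39%) and 1482 lower (6.62%). Of the 13-day calls, 822 were called in the same direction at 8 days (31.8% of the 13-day and 26.2% of the 8-day calls), and 156 in the opposite direction (6.03% and 4.97%).

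Contractile genes were among those that opposed. At 13 days 15 of 25 rose and 2 fell, while at 8 days 1 rose and 11 fell, with a median of 0.29 at 13 days and -0.25 at 8 days. The day difference was called higher for 14 and lower for none. At 8 days Tagln was at -1.94, -1.99 and -1.88 in shCdk8-2 cells, against -1.11, -1.30 and -1.26 in shNTC cells. That was a fall of 0.71 where 13 days gave a rise of 0.82, and the day difference was 1.53 (SE 0.09, adjusted p = 6.5e-10).

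The keratin pair had day differences of like size. At 8 days Krt18 was at -3.06, -3.05 and -3.16 in shCdk8-2 cells, against -1.94, -1.89 and -1.87 in shNTC cells. At 13 days it was at -0.77, -0.83 and -0.94 in shCdk8-2 cells, against -1.21, -1.22 and -1.17 in shNTC cells. The groups were apart at both days with opposite order, and the day difference was 1.55 (SE 0.07, adjusted p = 8.3e-11). Its partner Krt8 gave 1.56 (SE 0.08, adjusted p = 3.4e-10).

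The highest called day difference with a symbol was that of Thbs1, 1.65 (SE 0.20, adjusted p = 3.4e-05), and Skor1 (1.52) and Pmp22 (1.51) stood among the 6 highest. The 8-day fold changes of the 3 genes, -0.37, -0.43 and -0.20, were not called. The annexin list went with them, with 10 rises at 13 days against 9 falls at 8 days and 12 of 18 day differences called higher. Of the YAP and TEAD targets 8 of 10 had a day difference called higher, with Ccn2 at 0.90 and -0.40 at 13 and 8 days.

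ATF4 genes changed the other way, with 11 falls and 1 rise at 13 days against 17 rises and no fall at 8 days. The day difference was called lower for 18 of 31 and higher for none. Nupr1 at 8 days was at -2.47, -2.58 and -2.68 in shCdk8-2 cells, against -2.89, -2.88 and -2.88 in shNTC cells, a rise of 0.31, and its day difference was -1.04 (adjusted p = 2.8e-06). The lowest called day difference belonged to Lefty2, an antagonist of NODAL, at -1.28 (adjusted p = 0.0082). At 8 days it was at 2.93, 2.88 and 2.73 in shCdk8-2 cells, against 1.69, 1.91 and 1.70 in shNTC cells, and at 13 days at 2.44, 2.44 and 2.47, against 2.67, 2.70 and 2.57 in shNTC cells. It was thus higher at 8 days and not called at 13 days, where the fold change was -0.20. The related Lefty1 (-1.01), the NAD synthesis enzyme Qprt (-1.05), the matrix protein gene Crtac1 (-0.99) and the meiotic recombinase Dmc1 (-0.98) completed the 6 lowest called genes with a symbol.

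The 2-cell-like and GTPase genes named above held their direction between the days. In the 2-cell-like list 6 genes fell at 13 days and 5 at 8 days, with medians of -0.91 and -0.73 and no called day difference. Dhrs7 had fold changes of -1.59 and -1.64 at 13 and 8 days, and the day difference of 0.05 was not called (SE 0.09, adjusted p = 0.85). Gbp2b and Gbp2 rose at both days, by 1.00 and 0.71 at 13 days and by 0.69 and 0.58 at 8 days. The endoderm list did not, with 5 falls and 4 rises at 13 days against 14 falls and no rise at 8 days, and 12 of 26 had a day difference called higher. Gata6 was at -0.68 and -1.38 at the 2 days and Foxa2 at -0.52 and -1.34.

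**Figure D4:**
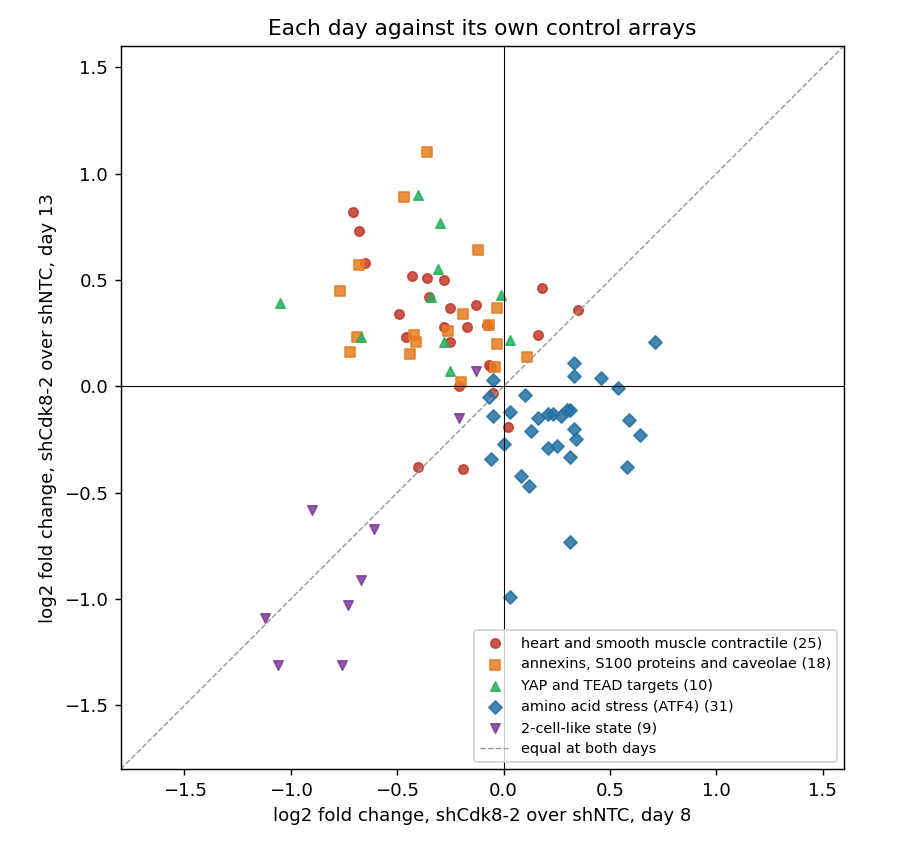
Fold changes of shCdk8-2 over shNTC at 13 days (y axis) and at 8 days (x axis), both log2, for the members of 5 lists, each day against its own control arrays. The dashed line marks equal values. Contractile genes, annexins and YAP and TEAD targets lie mostly in the upper left, ATF4 genes mostly in the lower right and 2-cell-like genes in the lower left.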

How the data were processed

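Gene expression was measured on 24 Agilent 2-colour arrays with Cy5 for the cells and Cy3 for the reference RNA on every array, without dye swaps, per the labels. Spots were quantified with Agilent Feature Extraction 10.7, per the submitters' processing notes. The deposited scanner files give median pixel intensities of spots and local background, per the file headers, with no normalization, and a log10 ratio made by the scanner software. Values in the table deposited by the authors are log2 ratios, which matched the scanner log ratios of the same array with a slope of 1.00.

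Background was corrected with normexp (offset 50), ratios were normalized by loess within arrays, and control and outlier spots were left out. Of 41174 probes, 28231 were kept because at least 1 group had Cy5 well above background on its 3 arrays and no value was missing, and the brightest kept probe stood for a gene. Among 304 genes with several called probes, 4 had probes that disagreed in direction. Probes were named through RefSeq accessions, and 18223 have no symbol here, those for Nanog, Med12l and Med13 included. One limma fit (limma 3.58.1, R 4.3.3) held all 24 arrays as 8 groups with 16 residual degrees of freedom, tests were two-sided and p-values were adjusted over 22387 genes. The fit was also run on simulated data with independent normal errors and no effect of slide, infection or a dim array. That run therefore cannot show how the calls hold up against such effects.

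Named genes are the kinase module, the 15 highest and 15 lowest called genes with a symbol and groups that do not overlap, up to 4 called members of each of 33 lists, the 6 highest and 6 lowest of both differences, and 7 pluripotency genes. Some genes that this rule takes are not reported here. The members, lists and tests were chosen with earlier results of these data known, and lists were described by counts and medians without a test. Alternatives were median centring, the scanner's and the authors' ratios, Cy5 alone, other backgrounds, probe rules and filters, slide and replicate blocks, and leaving out arrays. The number of arrays limits the precision.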

Additional observations from a re-analysis of the deposited data

Results flagged for a closer look

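The genes below are those among the genes reported here whose shCdk8-2 effect differed between 13 and 8 days, tested by the interaction contrast in limma. Values are log2 differences, the 13-day fold change minus the 8-day one. Cytoskeletal and contractile genes had Tagln 1.53, Acta1 1.41, Acta2 1.22, Actc1 0.95, Krt8 1.56, Krt18 1.55, Vim 0.79 and Nes 0.34. Membrane-associated proteins had Ahnak 1.46, Anxa1 1.36, Cav1 1.25, Lgals3 0.76, Pmp22 1.51, Cd81 0.40 and Itgb4 0.32. Among YAP and TEAD targets Ccn2 gave 1.30, Ccn1 1.07, Nt5e 0.87 and Amotl2 0.44.

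Secreted and metal-handling genes with a positive difference were Thbs1 (1.65), Edn1 (1.28), Slc39a8 (1.10), Slc40a1 (0.62), Mt1 (0.64) and Mt2 (0.70). Rnf128 gave 0.96 and 3830417A13Rik 1.05. Transcription factors and signalling genes were Skor1 (1.52), Gata3 (1.15), Wnt6 (1.03), Phlda1 (0.99), Gata2 (0.98), Ier5 (0.82), Klf6 (0.73), Id1 (0.70), Id2 (0.59), Etv4 (0.55), Myc (0.52), Dusp6 (0.47), Maff (0.44), Inhbb (0.39) and Ifitm3 (0.42). Stress genes with a positive difference were Pmaip1 (0.83), Dnajc3 (0.60) and Gadd45b (0.56). For the endoderm genes Col4a1 (0.83), Foxa2 (0.82) and Gata6 (0.71) the fold change was negative at both days and smaller at 13 days.

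Negative differences belonged to the stress genes Nupr1 (-1.04), Gdf15 (-0.85), Psat1 (-0.59), Psph (-0.50) and Ccng2 (-0.31), to Lefty2 (-1.28) and Lefty1 (-1.01), and to the meiotic genes Dmc1 (-0.98) and Aurkc (-0.84). Metabolic genes were Qprt (-1.05), Abcg1 (-0.85), Acss1 (-0.63), Pfkp (-0.45) and Aldoc (-0.39). Crtac1 (-0.99), E2f1 (-0.40), Rpl39l (-0.37), Wdr12 (-0.30) and Mfng (-0.30) completed the set. Dmc1 was well above background on 2 of 3 shCdk8-2 arrays at 13 days.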

How the results depend on the processing

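The number of calls against shNTC (2587) became 201 with median centring of each array, 4405 with the scanner's log ratios, 4411 with the authors' value table and 1247 with slide as a fixed block. The calls between the hairpins (2615) became 268, 4735, 4744 and 1257 in the same settings, and those of the day difference (1313) became 34, 2447, 2465 and 514. Without 2 arrays of other groups, whose ratios had a slope of 0.79 on their replicates, the calls against shNTC became 3851. In that setting the hairpins differed in 3817 genes and the day difference had 2281 calls. Leaving out 1 array at a time gave 1610 to 2262 calls against shNTC, 1916 to 2472 between hairpins and 883 to 1434 for the day difference. Without shNTC replicate 1 the calls against shNTC were 1610, and without shNTC replicate 2 the day difference had 883. The cause of these shifts was not tested. The within-slide value of Cdk8 was -0.50, and it was called in all other settings. Slide as a random block (2549), Cy5 alone (2898) and the other settings moved the count against shNTC by less than 1.5 times. Of 131 called named genes, 85 lost their call with median centring, 43 with slide as a fixed block, 16 without shCdk8-2 replicate 3 and 11 with Cy5 alone, and none reversed. The scaling between arrays alters the average brightness and not the ratios, so it changed nothing. Replicate numbers are shared between groups without a stated pairing: residuals of same-numbered arrays correlated at 0.00, -0.01 and -0.07, and a replicate block called 2558 genes and ended the call of 5 named genes. Signal over background limits the dim array, on which fewer genes were measured.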
